A study of Mus musculus with 9 samples.

Results

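The keratins and keratin-associated proteins are the structural proteins of the epidermis and of the hair, and their transcripts were followed in the skin of 9 mice. Members were all probe sets (groups of short probes that read 1 transcript) whose platform annotation gives a single gene symbol starting with Krt and a digit, or with Krtap. This rule found 61 of the 12422 probe sets that are not array controls, and they read 44 of the 8251 genes named singly on the array. Of these, 50 probe sets read 33 keratins and 11 read 11 keratin-associated proteins. A further 2 probe sets, annotated to Krtap3-2 together with Krtap3-3 and to Krtap6-1 together with other genes, were not members.

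Whole skin without ultraviolet irradiation was taken from 5 mice with the genotype Cd1d -/-, which lack CD1d, a molecule that displays lipid antigens to T cells of the natural killer type. It was also taken from 4 wild-type mice, Cd1d +/+. All were on the inbred C57BL/6 background, matched for age and sex, and each mouse had its own Affymetrix MG-U74 array. The labels give no age, body site or stage of the hair cycle, and they do not say whether the genotypes were littermates. Signals are in the arbitrary units of MAS5, the array maker's program, and their trimmed mean was nearly the same in every array (200.11 to 200.133).

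Keratins form filaments as pairs of an acidic type I chain and a basic type II chain, and each layer of skin has its own pairs. Basal epidermal cells make Krt5 with Krt14, and cells that leave the basal layer switch to Krt1 with Krt10. In the growing hair follicle, the inner root sheath, which moulds the hair, makes Krt25, Krt27, Krt71 and Krt72. The hair shaft makes its own hair keratins, of which Krt35 starts low in the bulb and Krt31, Krt34, Krt81, Krt83 and Krt86 higher up in the cortex. Keratin-associated proteins then fill the space between the shaft's filaments and are cross-linked to them. Follicles pass through growth (anagen), regression and rest, and the inner root sheath and shaft genes are active in the growing follicle. The keratin-associated proteins fall into sulfur-rich families and families rich in glycine and tyrosine.

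The 250 bases before the start that RefSeq's promoter table gives are shown for the 4 inner root sheath keratins, for 2 shaft keratins and 1 keratin-associated protein with wide ranges between mice, and for Krt10, whose signal was nearly level. They were taken from RefSeq on build GRCm38.p6 and run 5′ to 3′ along the gene's own strand. Capitals mark matches on either strand to 4 motifs. The first is TATAAA, the TATA box. Another is CTTTGA, the core that LEF1 and TCF factors bind. The next is AGATAA, a core bound by GATA factors. The last is TGANTCA, the AP-1 site.
Krt25, chr11:99322952-99323201, minus strand: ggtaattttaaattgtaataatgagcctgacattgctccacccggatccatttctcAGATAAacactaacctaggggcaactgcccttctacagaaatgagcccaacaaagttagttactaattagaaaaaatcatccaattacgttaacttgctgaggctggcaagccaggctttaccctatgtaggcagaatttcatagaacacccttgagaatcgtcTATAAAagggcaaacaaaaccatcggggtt
Krt27, chr11:99351119-99351368, minus strand: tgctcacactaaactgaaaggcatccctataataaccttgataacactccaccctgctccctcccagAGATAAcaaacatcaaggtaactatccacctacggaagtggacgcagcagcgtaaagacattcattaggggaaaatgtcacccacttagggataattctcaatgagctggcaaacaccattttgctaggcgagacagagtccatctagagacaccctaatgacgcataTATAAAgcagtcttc
Krt71, chr15:101743098-101743347, minus strand: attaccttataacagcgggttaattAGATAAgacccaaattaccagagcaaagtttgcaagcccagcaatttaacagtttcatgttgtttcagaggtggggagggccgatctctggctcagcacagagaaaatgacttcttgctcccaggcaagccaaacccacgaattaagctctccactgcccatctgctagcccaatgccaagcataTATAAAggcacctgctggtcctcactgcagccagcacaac
Krt72, chr15:101786521-101786770, minus strand: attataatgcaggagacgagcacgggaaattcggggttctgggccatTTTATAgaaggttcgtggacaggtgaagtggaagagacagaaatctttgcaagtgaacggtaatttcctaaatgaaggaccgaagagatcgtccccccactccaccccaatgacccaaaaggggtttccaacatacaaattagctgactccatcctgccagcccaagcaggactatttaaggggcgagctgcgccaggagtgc
Krt31, chr11:100050552-100050801, minus strand: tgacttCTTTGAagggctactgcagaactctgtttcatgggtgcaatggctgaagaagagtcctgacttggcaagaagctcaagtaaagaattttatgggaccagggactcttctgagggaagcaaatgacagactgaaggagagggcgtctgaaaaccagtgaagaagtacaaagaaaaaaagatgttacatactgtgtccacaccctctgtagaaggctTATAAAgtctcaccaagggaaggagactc
Krt34, chr11:100041555-100041804, minus strand: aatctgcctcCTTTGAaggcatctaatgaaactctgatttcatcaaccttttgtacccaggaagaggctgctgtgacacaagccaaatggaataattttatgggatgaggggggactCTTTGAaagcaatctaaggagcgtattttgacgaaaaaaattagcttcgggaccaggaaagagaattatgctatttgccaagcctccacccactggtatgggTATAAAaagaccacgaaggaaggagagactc
Krtap8-1, chr16:89487953-89488202, minus strand: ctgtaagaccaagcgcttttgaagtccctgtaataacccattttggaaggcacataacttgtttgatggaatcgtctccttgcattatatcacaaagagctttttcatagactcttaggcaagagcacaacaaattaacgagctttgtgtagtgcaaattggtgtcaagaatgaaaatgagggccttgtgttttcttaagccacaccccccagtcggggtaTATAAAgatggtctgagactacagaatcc
Krt10, chr11:99389365-99389614, minus strand: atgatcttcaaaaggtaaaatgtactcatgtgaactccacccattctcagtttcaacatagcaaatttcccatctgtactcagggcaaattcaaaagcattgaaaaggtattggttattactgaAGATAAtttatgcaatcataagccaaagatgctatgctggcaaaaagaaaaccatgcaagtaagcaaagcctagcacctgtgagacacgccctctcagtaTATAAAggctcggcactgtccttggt

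Of the 44 genes, 30 had an entry in the promoter table, giving 31 promoters. Of these 31, 24 have the same start as the gene table. The suprabasal Krt10, Krt2 and Krt77 and the shaft keratin Krt36 are among those that do not. Their positions hold for the promoter table's start only. TATAAA stood in 19 of these 31 (61.3%), against 12.4% of all 32851 promoters, and the share was 4 of 4 for the inner root sheath, 5 of 6 for the hair shaft and 7 of 9 for the keratin-associated proteins. In the promoters shown, the last match starts at -30 from the gene start in Krt25, at -15 in Krt27, at -40 in Krt71, at -29 in Krt31 and Krtap8-1, at -31 in Krt34 and at -26 in Krt10, while that of Krt72 lies far upstream, at -203. The match counted for the hair shaft keratin Krt84, not shown, also lies far upstream, at -206. AGATAA was found in 3 of 4 inner root sheath, 2 of 3 suprabasal, 2 of 7 simple or mucosal and 0 of 6 hair shaft promoters, and in 9.99% of all promoters. The LEF1 and TCF core was found in 4 of 6 hair shaft, 1 of 3 suprabasal, 1 of 9 keratin-associated protein and 0 of 4 inner root sheath promoters, and in 13.8% of all. The AP-1 site was found in 3 of 31 member promoters (9.68%) and in 6.75% of all. A match is a description of these letters and not evidence of a bound site, and TATAAA matches do not overlap the other motifs in the sequences shown.

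Among the 9 arrays, a signal at the 40th percentile of its array, used below as the level that separates bright from dim, lay between 43.4 and 53.3. Signals are listed throughout in the order of the mouse numbers, 1 to 5 for knockout and 1 to 4 for wild type. Of the 61 probe sets, 34 (30 genes) reached that level in at least 4 arrays and were tested, and the other 27 are given by their signals. As a check of the labels, the Cd1d1 probe set read 60.3 ± 12.7 in knockout (SD, n = 5) and 109 ± 16.7 in wild-type skin (SD, n = 4), with limma's adjusted p at 0.242. The deposited values have 7 decimals in knockout 1 and 2 and wild type 2 to 4 and 9 decimals in the other 4 arrays. What this difference in format marks is not stated, so values within each set are given beside the main results.

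**Figure D1:**
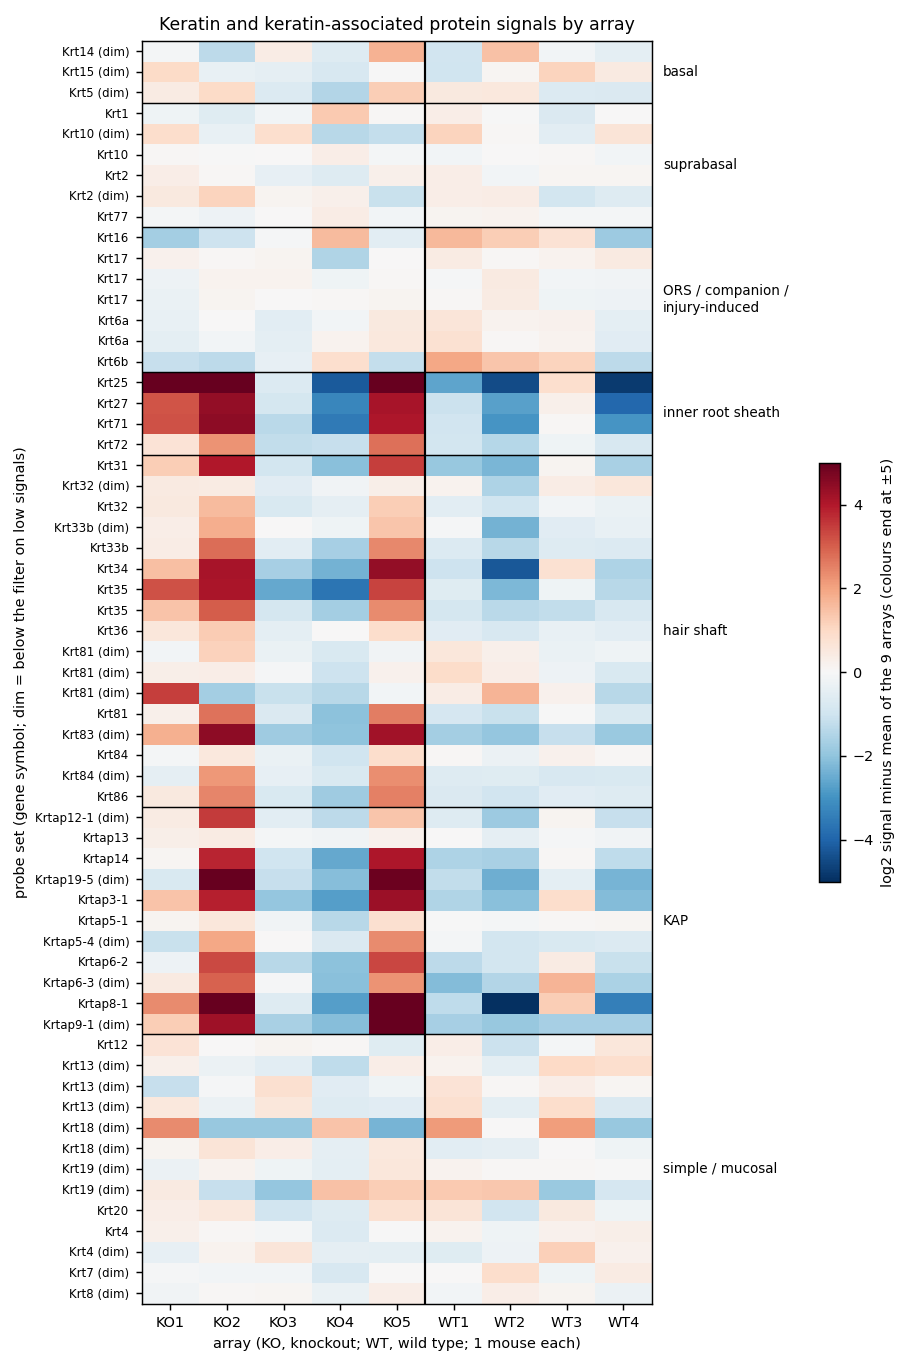
Log2 signal of each of the 61 member probe sets (rows, grouped by tissue layer) in each of the 9 arrays (columns, KO for knockout and WT for wild type, 1 mouse each), as the difference from that probe set's mean over the arrays. Colours end at 5 log2 units either way, and dim marks probe sets left out by the signal filter. The inner root sheath, hair shaft and keratin-associated protein rows are high (red) in knockout 2 and 5, and less evenly in knockout 1, while suprabasal rows are pale.

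The 4 keratins of the inner root sheath had the widest spread between mice of all the classes. Krt25, a type I chain of all layers of the sheath, read 2647.9, 4915.8, 52.1, 4.6 and 2892.5 in knockout skin against 13.4, 3.8, 148.3 and 3.0 in wild-type skin. Krt27, another type I chain, read 1724.6, 4148.2, 106.0, 20.4 and 3441.2 against 93.7, 30.4, 233.1 and 12.9. Both were thus high in knockout 1, 2 and 5, and in both the groups overlapped through knockout 3 and 4. Krt71, a type II partner of these chains, read 3892.5, 9340.4, 167.5, 36.5 and 6924.5 in knockout skin against 216.6, 55.5, 445.8 and 54.8 in wild-type skin. Krt72, the type II chain of the sheath's cuticle, read 245.8, 734.5, 66.1, 69.1 and 1046.1 against 81.7, 56.7, 130.9 and 88.5. The same 3 knockout mice were the highest for all 4 genes, and wild type 3 was the highest wild-type mouse for each. With dim signals raised to the array's bright level, so that they give only a bound, the highest signal of Krt25 was at least 113 times its lowest, of Krt27 at least 95.6 times and of Krt71 at least 200 times. Krt72, bright in all 9 mice, spanned 18.4-fold. The median range of the class on this bounded scale was 6.70 log2 units, against 2.58 for the hair shaft and 2.80 for the keratin-associated proteins. Those 2 classes include probe sets dim in every mouse, such as Krtap6-3, whose range this scale fixes at 0.30, and the inner root sheath has none. The medians are thus not over like sets, and single members such as Krtap3-1 (6.58) and Krt31 (5.28) had wide ranges too.

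The log2 difference of Krt25, knockout minus wild type, was 4.99 (SE 1.96, 95% interval 0.70 to 9.28), with limma's adjusted p at 0.466. That of Krt27 was 3.36 (SE 1.48, limma's adjusted p = 0.519). Krt71 had a log2 difference of 3.06 (SE 1.51) and Krt72 one of 1.51 (SE 0.76), with limma's adjusted p at 0.566 and 0.573. The median over the 4 was 3.21, where the median over all probe sets was 0.007. No member of the class passed the test, where 0.0522% of all tested probe sets did. Within the 7-decimal arrays, where the knockout mice are numbers 1 and 2, the class median was 5.83, and within the 9-decimal arrays, which hold a single wild-type mouse, it was 1.05. In whole skin, fewer cells of a layer and less RNA per cell cannot be told apart, and this holds for every class described here. Low MAS5 signals have a large relative error, and 3 of the 4 wild-type values of Krt25 lay below the level used to separate bright from dim, which leaves its fold uncertain.

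**Figure D2:**
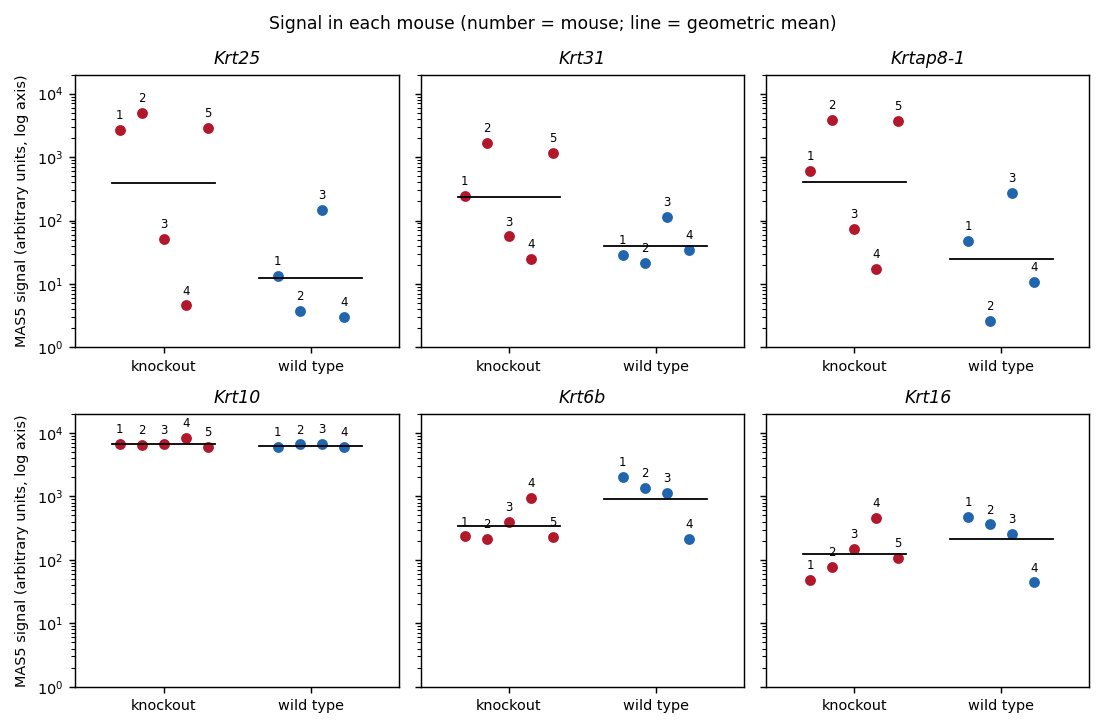
MAS5 signal (arbitrary units, log axis) of 6 probe sets in each mouse, numbered as in the text, with knockout mice in red and wild-type mice in blue and a line at each group's geometric mean. Krt25, Krt31 and Krtap8-1 split the knockout mice, Krt10 is level in all 9, and Krt6b and Krt16 are high in wild type 1, 2 and 3 and in knockout 4.

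The hair shaft keratins, with 17 probe sets for 10 genes, showed the same mice at the top. Krt31, a type I keratin of the cortex, read 247.6, 1686.2, 56.1, 25.0 and 1174.3 in knockout skin against 28.4, 21.8, 115.1 and 34.5 in wild-type skin. Krt34, its neighbour in the gene cluster and also a type I cortex keratin, read 192.3, 1173.3, 21.1, 13.1 and 1425.8 against 32.7, 3.6, 114.5 and 23.0. For both, knockout 2 and 5 stood well above every other mouse, and knockout 1 lay between them and the rest. Krt33b, of the same type and also from the cortex, read 330.0, 1807.4, 177.9, 81.8 and 1378.1 against 159.8, 99.6, 165.7 and 163.0. The type II cortex keratins followed the same order. Krt81 read 558.8, 3032.8, 284.5, 112.7 and 2763.5 against 260.2, 218.8, 461.0 and 272.7, and its neighbour Krt86 read 685.8, 2624.6, 283.7, 140.5 and 2793.4 against 297.9, 247.4, 330.8 and 314.1. Krt83, between Krt86 and Krt84 on chromosome 15, read 159.3, 1032.0, 13.6, 11.8 and 872.3 against 12.3 to 20.9 in the wild-type mice. Because Krt83 was bright in only 3 arrays, it did not pass the filter.

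Krt35, the hair keratin that starts earliest in the shaft, had 2 probe sets. The first read 683.1, 1274.2, 12.9, 6.0 and 799.4 in knockout and 50.3, 16.2, 65.8 and 29.0 in wild-type skin, and the second read 373.4, 1126.0, 76.5, 43.2 and 711.4 against 76.2, 54.8, 59.1 and 81.0. In both, knockout 1 was closer to knockout 5 than it was for Krt31 or Krt34. Krt36, a type I hair keratin beside Krt35 on chromosome 11, read 248.2, 396.0, 118.5, 169.5 and 309.5 against 111.0, 95.8, 128.9 and 115.9. It was the member with the smallest p, and its groups overlapped only through knockout 3. Krt32, a type I keratin of the shaft cuticle, read 626.9, 1339.2, 267.1, 329.3 and 1050.8 against 311.5, 223.9, 413.8 and 355.0. The brighter probe set of Krt84, a hair-type keratin known from the tongue, ran from 37.1 to 135.2 over the 9 mice, and a second one was dim.

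Krt36 had a log2 difference of 1.02 (SE 0.30, 95% interval 0.37 to 1.67), with an unadjusted p of 0.00544 and limma's adjusted p at 0.363. That of Krt31 was 2.56 (SE 1.11, limma's adjusted p = 0.517). Krt34 differed by 2.71 (SE 1.44) on the log2 scale and the second Krt35 probe set by 1.91 (SE 0.82), with limma's adjusted p at 0.578 and 0.511. For Krt31 and Krt34 the wild-type mice other than number 3 were dim, which leaves their folds uncertain. With 64 added to every signal these 2 differences were 1.78 and 1.65. The class median was 1.28 over all 17 probe sets, 2.11 within the 7-decimal arrays and 0.69 within the 9-decimal arrays. In 13 of 17 the knockout mean was the higher, against 51% of all probe sets. Of the 10 tested, 0 passed, where 0.0522% of all tested probe sets did. Within the 7-decimal arrays the first Krt35 probe set did pass (log2 4.89, limma's adjusted p = 0.0303), but within the 9-decimal arrays its log2 difference was -0.35 and over all arrays 1.99 (SE 1.49, limma's adjusted p = 0.720). The 4 probe sets whose knockout mean was not higher were the brighter Krt84 one, at -0.01, and 3 of the 4 for Krt81, which were below the bright level in every mouse.

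The keratin-associated proteins repeated this picture. Krtap8-1, a protein rich in glycine and tyrosine, read 599.8, 3842.2, 74.1, 17.2 and 3728.0 in knockout skin against 48.0, 2.6, 276.2 and 10.9 in wild-type skin. Krtap3-1, of a sulfur-rich family, read 626.0, 3402.0, 61.2, 33.9 and 4455.5 against 80.8, 53.7, 428.3 and 50.8. Knockout 2 and 5 exceeded every wild-type mouse by a wide margin, whereas knockout 3 and 4 did not, and knockout 4 was the lowest of all 9 mice for Krtap3-1. Krtap9-1, of the families richest in sulfur, read 215.2, 1745.3, 29.8, 21.1 and 3428.7 against 24.6 to 29.4, a span in the wild-type mice that is narrow beside that of the knockout mice. Krtap14 read 111.6, 1446.0, 51.8, 17.7 and 1692.1 against 35.7, 33.8, 107.7 and 43.6. Krtap6-2, from a family rich in glycine and tyrosine and next to Krtap8-1 on chromosome 16, read 70.9, 828.2, 32.2, 20.4 and 849.9 against 33.8, 43.8, 109.9 and 38.3. In these last 2 genes knockout 1 was at most slightly above, or was below, wild type 3.

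Krtap19-5, also of the glycine- and tyrosine-rich kind, was bright in 2 mice only. It read 301.7 in knockout 2 and 180.8 in knockout 5, and between 1.1 and 4.3 in the other 7, among them knockout 1 at 3.6. Krtap5-4, an ultra-high-sulfur protein, read 171.8 and 229.8 in these same mice and between 20.7 and 45.5 in the others. Its neighbour on chromosome 7, Krtap5-1, differed in kind, since it was bright in every mouse, at 854.6, 1146.6, 679.7, 290.8 and 1346.8 against 765.0, 725.6, 801.8 and 825.4. Krtap13 was nearly level, from 149.3 to 269.1. Krtap12-1 was bright in knockout 2 only (99.5), and Krtap6-3 was dim in every mouse, with its highest signal there too (49.1).

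The log2 difference of Krtap8-1 was 4.03 (SE 1.69, 95% interval 0.35 to 7.72), with limma's adjusted p at 0.505. Its wild-type signals other than 276.2 were dim, which leaves this fold uncertain. With 64 added to every signal the difference was 2.45. Krtap3-1 differed by 2.21 (SE 1.37, limma's adjusted p = 0.654), Krtap5-1 by -0.03 (SE 0.35) and Krtap13 by 0.30 (SE 0.16). The direction of Krtap5-1 turned in several alternative settings, for instance to 0.24 with array weights, and that of Krtap13 within the 9-decimal arrays. The class median over 11 probe sets was 1.59, with 2.89 and 1.38 within the 7- and the 9-decimal arrays. In 10 of 11 the knockout mean was the higher, against 51% of all probe sets. Of the 6 tested, 0 passed, where 0.0522% of all tested probe sets did.

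Knockout 1 joined knockout 2 and 5 more closely for some members than for others. To describe this, the signal of knockout 1 was expressed as a percentage of that of knockout 2 and of knockout 5, over probe sets bright in both. Over all 7089 such probe sets the medians were 101% and 102%, and the central 95% ran from 61.4% to 155% and from 58.9% to 164%. The inner root sheath keratins had medians of 41.6% and 53.2%, the 12 shaft probe sets 29.6% and 36.1%, and the 9 for keratin-associated proteins 12.3% and 9.01%. Entry needs bright signals in knockout 2 and 5, already known as the highest mice for many of these members, which favours low percentages. Krt83, Krtap9-1 and the dimmer Krt33b probe set were bright in only 3 mice, and Krtap19-5 and Krtap5-4 in only 2. Such members entered through the mice where they are high. Within the shaft, Krt36 stood at 62.7% and 80.2% and the first Krt35 probe set at 53.6% and 85.4%. The cortex keratin Krt31 stood at 14.7% and 21.1%, and Krt34 at 16.4% and 13.5%. Krt25 read 53.9% of knockout 2 and 91.5% of knockout 5 in the sheath, while Krt72, of the sheath's cuticle, read 33.5% and 23.5%. Among the keratin-associated proteins bright in knockout 1 the lowest were 7.72% and 6.60% for Krtap14 and 12.3% and 6.28% for Krtap9-1, and the highest 92.3% and 105% for Krtap13. For Krtap19-5 and Krtap5-4 knockout 1 was dim, so the percentage is only an upper limit, at 17.7% and 29.5% for Krtap19-5 and 31.0% and 23.2% for Krtap5-4. With these limits in place of the dim signals the class medians were 17.7% and 16.1%. The suprabasal keratins, at 117% and 105%, lay near the median of all probe sets.

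Knockout 1 was under 20% of both other mice at 14 of the 7089 probe sets (0.197%). Of these 14, 9 are members, namely Krt34, Krt83, Krtap3-1, Krtap5-4, Krtap6-2, Krtap8-1, Krtap9-1, Krtap14 and Krtap19-5, and another is the probe set annotated to Krtap6-1 with other genes. The 20% limit and this comparison of single mice were chosen after the values were seen, each mouse has 1 array, and no test was made. The rule of entry favours low percentages here too. With dim signals raised to the bright level, 10 probe sets were under 20%, and 7 of them were members, without Krtap5-4 and Krtap19-5. A raised base level shared by all mice could enter such a percentage. With the wild-type mean of each probe set subtracted first, a step likewise added after the data were seen, the medians over the tested probe sets were 40.3% and 51.9% for the inner root sheath, 14.9% and 16.6% for the shaft and 14.1% and 12.1% for the keratin-associated proteins. Without the subtraction these were 41.6% and 53.2%, 29.6% and 38.2%, and 17.0% and 15.1%. The gap between shaft keratins and keratin-associated proteins was therefore much smaller once the wild-type mean was subtracted, and that to the inner root sheath was not. The wild-type mean can hold more than a base level, as wild type 3 read 428.3 for Krtap3-1 where the other wild-type mice read 50.8 to 80.8. The shaft medians also include Krt84, where knockout 1 lay below the wild-type mean and the percentages were -15.8% and -8.47%.

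**Figure D3:**
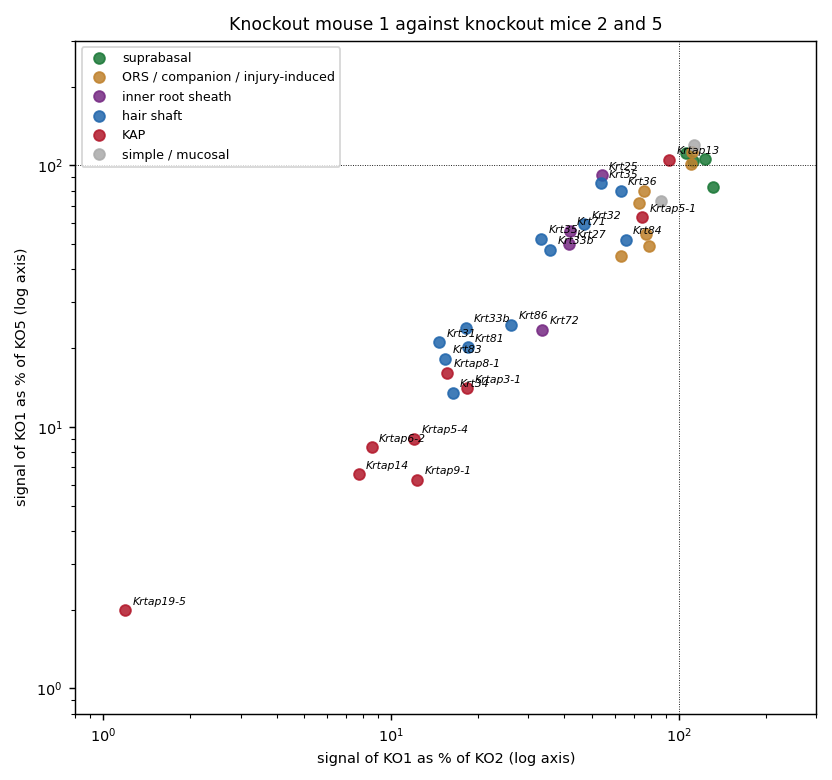
Signal of knockout 1 as a percentage of that of knockout 2 (horizontal, log axis) and of knockout 5 (vertical, log axis) for the member probe sets bright in both, coloured by class, with dotted lines at 100%. Suprabasal keratins lie near 100% on both axes, the inner root sheath at medians of 41.6% and 53.2%, and Krtap19-5 lowest, at a point where knockout 1 is dim and only an upper limit of 17.7% and 29.5% can be given.

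Among the wild-type mice, wild type 3 most often had the highest follicle signals. They were below those of knockout 2 and 5 for all 4 inner root sheath keratins and for the tested keratins of the cortex, while for Krtap6-2 and Krtap14 they were above or close to that of knockout 1. It was the highest of its group for 4 of 4 inner root sheath, 10 of 17 hair shaft and 7 of 11 keratin-associated protein probe sets, against 27.4% of all probe sets. Its Krt25 signal of 148.3 compares with 13.4 in wild type 1, and its Krtap3-1 signal of 428.3 with 80.8. For Krt83 (20.9) and Krtap9-1 (29.2), by contrast, wild type 3 was as dim as the others. At the other end, knockout 4 had the lowest signal of all 9 mice at 24 of 61 members, where 21% of all probe sets have theirs there, and at 9 of the 17 hair shaft probe sets.

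The suprabasal epidermal keratins Krt1, Krt10 and Krt77 were bright in every mouse, and Krt10 and Krt77 varied little. Krt10, the type I chain of the spinous layer, read 6786.3, 6430.4, 6612.1, 8270.2 and 6074.6 in knockout skin against 6035.1, 6582.0, 6766.8 and 5946.7 in wild-type skin. Krt77, a type II keratin related to Krt1, read 6397.9, 5724.0, 6925.4, 8878.7 and 6177.7 against 7519.6, 7668.5, 6448.1 and 6413.5. Krt1, the partner of Krt10, read 1836.1, 1402.7, 1954.3, 5312.3 and 2216.0 against 2736.4, 2131.7, 1295.2 and 2205.7. Knockout 4 was the highest mouse for all 3, by the widest margin for Krt1, and the groups overlapped. Knockout 2, among the highest mice for hair keratins, had the lowest Krt77 signal of all and the lowest Krt1 signal among the knockout mice.

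The log2 difference of Krt10 was 0.10 (SE 0.10, 95% interval -0.12 to 0.33), with limma's adjusted p at 0.791. Krt77 differed by -0.05 (SE 0.13) and Krt1 by 0.16 (SE 0.34), with limma's adjusted p at 0.929 and 0.913. Without a single array the Krt1 difference ran from -0.14 to 0.34, so that its direction rests on single mice, and it was -0.19 within the 7-decimal arrays. Krt2, a keratin of the upper epidermis, read 73.3 to 144.5, with a log2 difference of -0.18 (SE 0.21). The class median over 6 probe sets was 0.03, with 0.10 and -0.31 within the 7- and the 9-decimal arrays. Second probe sets of Krt10 and Krt2 were dim in every mouse, although their first ones were not, so a dim probe set does not show that a transcript is absent.

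The basal keratins illustrate the same limit. Whole skin holds basal keratinocytes, but the single probe sets of Krt5 (4.3 to 28.0), Krt14 (4.4 to 36.5) and Krt15 (1.3 to 5.7) were below the bright level in all 9 mice. Their levels in these mice are therefore not known from this array, and 0 of the 3 could be tested with the filter. The presence of epidermis is shown by Krt1, Krt10 and Krt77 and by loricrin (Lor), a protein of the cornified envelope, at 4252.2 to 10274.0.

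Keratins of the outer root sheath and companion layer, which are also induced in the epidermis by injury, ran partly the other way. Krt6b read 233.4, 212.7, 393.8, 945.7 and 231.1 in knockout skin against 2020.6, 1379.8, 1136.5 and 212.8 in wild-type skin. Krt16, a type I partner of the Krt6 chains, read 48.3, 76.6, 149.0, 459.6 and 107.1 against 472.9, 361.4, 257.5 and 44.2. In both genes wild type 1, 2 and 3 and knockout 4 were high, and wild type 4 was about as low as knockout 1. Krt6a, which lies beside Krt6b and codes for a very similar protein, read 2607.1, 3389.0, 2345.9, 3085.3 and 4757.0 against 5182.0, 3855.1, 3925.4 and 2377.5 in its brighter probe set. Krt17 was nearly level in its 2 bright probe sets, which ran from 1861.3 to 2970.0 and from 2522.8 to 4204.4. Knockout 5, among the highest mice for hair keratins, had the highest Krt6a signal of its group but a Krt6b signal near the lowest.

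Krt6b had a log2 difference of -1.43 (SE 0.61, 95% interval -2.77 to -0.09), from means of 403 ± 312 (SD, n = 5) and 1187 ± 749 (SD, n = 4), with limma's adjusted p at 0.511. Over its 21 alternative settings that difference ran from -2.19 to -1.05. Krt16 differed by -0.78 (SE 0.72, limma's adjusted p = 0.781) and the brighter Krt6a probe set by -0.24 (SE 0.24). The brighter Krt17 probe set, at 0.002, turned its sign with the between-array scaling. The class median over 7 probe sets was -0.24, with -0.15 and -0.67 within the 7- and the 9-decimal arrays. Probe sets of near-identical keratins can share probes or targets, so the split between Krt6a and Krt6b is uncertain, as it is between Krt31, Krt33b and Krt34, between Krt81, Krt83 and Krt86, and within the Krtap families.

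Keratins of simple and mucosal epithelia, which line glands, gut or mouth, were mostly dim. Of 13 probe sets for 8 genes, 3 were tested. Krt4, a mucosal keratin, read 136.9 to 269.8 (log2 difference -0.22, SE 0.19), Krt20 read 21.9 to 73.7 and Krt12, a corneal keratin, 25.4 to 86.3. Krt8 (8.1 to 12.9), a keratin of simple epithelia, was below the bright level in all 9 mice, as were Krt7 (5.5 to 17.6) and both Krt18 probe sets (0.3 to 29.4). The class median was -0.20 over all 13 probe sets, but 0.01 over the 3 tested and -0.003 with 1 probe set a gene. It was 0.06 and -0.46 within the 7- and the 9-decimal arrays.

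In the comparison of the genotypes over all probe sets, 0 of the 34 tested members passed limma's threshold of adjusted p 0.05, where 4 of all 7658 tested probe sets (0.0522%) did. Without the filter it was 0 of 61, against 6 of 12422 (0.0483%). At an unadjusted p under 0.05, limma listed 7 of the 34 members, where 9.4% of all tested probe sets were listed, and 10 of the 61 without the filter, where 8.51% were. Of those 10, 9 had higher knockout means (9 of 61, against 4.93% of all). They were Krt25, Krt27, Krt31, Krt36, Krt83, Krtap8-1, Krtap9-1, the second Krt35 probe set and a dimmer Krt33b probe set. The other was Krt6b, with a lower mean (1 of 61, against 3.57%). In each of the 9, knockout 1, 2 and 5 were the highest mice, so these are not separate results. An exact permutation test over arrangements of the 9 arrays gave p = 0.03175 for Krt36 and the dimmer Krt33b probe set. Its p was 0.111 for Krt25 and Krtap8-1, 0.127 for Krt31 and 0.151 for Krt83. For Krt27, Krtap9-1 and the second Krt35 probe set this permutation p was 0.135, and for Krt6b it was 0.0952. That dimmer Krt33b probe set was bright in 3 arrays and read 61.9, 173.4, 50.2, 42.5 and 129.9 against 47.5, 9.7, 33.5 and 38.1. The brighter Krt33b probe set and the first Krt35 one were not listed (limma's unadjusted p = 0.0735 and 0.209 without the filter). For 0 of the 61 did the groups fail to overlap, against 2.83% of all probe sets. The knockout mean log2 signal was the higher at 37 of 61, against 51% of all.

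**Figure D4:**
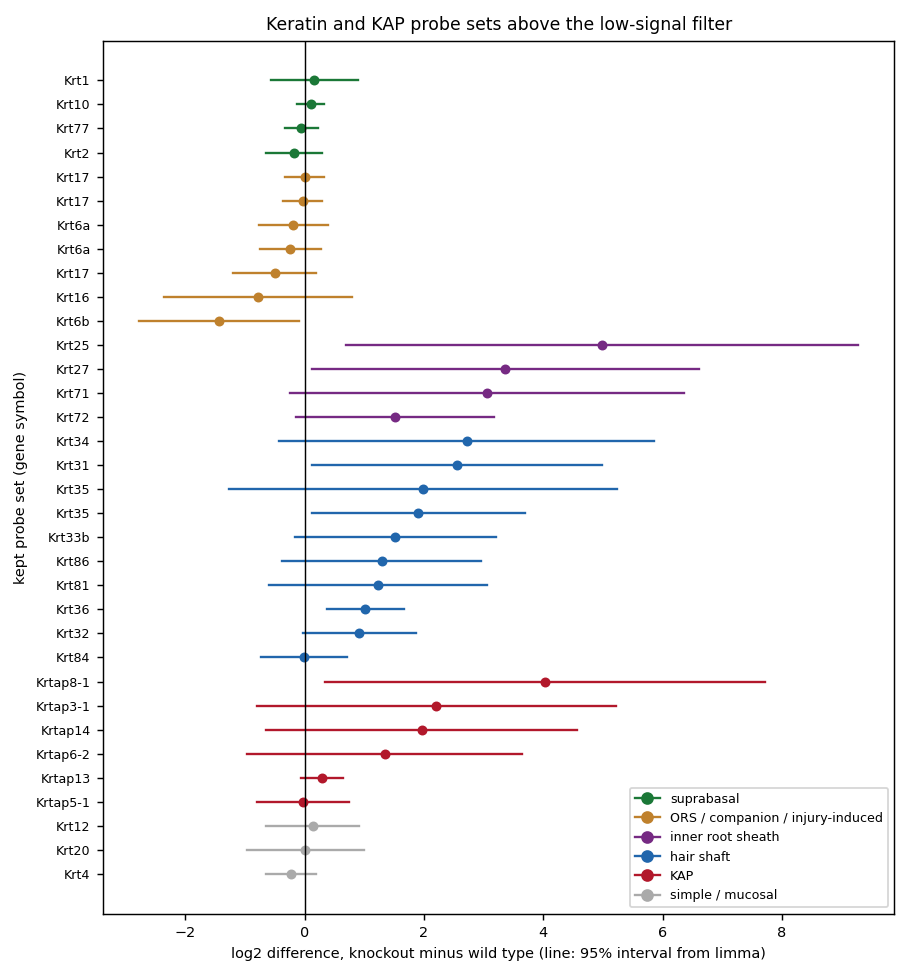
Log2 difference, knockout minus wild type, of the 34 tested member probe sets (points) with limma's 95% interval (lines), coloured by class. The intervals are widest for Krt25 (0.70 to 9.28) and several other follicle members and narrow for Krt10 (-0.12 to 0.33).

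The range over the 9 mice exceeded 4 log2 units, a 16-fold span, at 23 of the 61 members, against 3.52% of all probe sets. These were 4 of 4 inner root sheath, 10 of 17 hair shaft, 8 of 11 keratin-associated protein and 1 of 13 simple or mucosal probe sets, and none of the 16 in the other classes. Of the 23, 3 were dim in every mouse, 1 each for Krt81, Krtap6-3 and Krt18. With dim signals raised to the bright level 17 members were past 4 log2 units, against 0.217% of all probe sets, in the inner root sheath (4), hair shaft (8) and keratin-associated protein (5) classes. The SD of log2 signal was larger among knockout than among wild-type mice at 44 of 61, against 50.5% of all. It was so at 4 of 4 inner root sheath, 14 of 17 hair shaft and 11 of 11 keratin-associated protein probe sets. The suprabasal class showed it too, at 6 of 6, as did 2 of 3 basal, 6 of 13 simple or mucosal and 1 of 7 outer root sheath probe sets. Knockout 1, 2 and 5 were the 3 highest mice at 22 of 61 members, against 2.74% of all probe sets. All 22 lie in the inner root sheath (4), hair shaft (11) and keratin-associated protein (7) classes. These counts describe arrays singled out in earlier results of the same data, and they are not tests.

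The median of a class in each mouse, as log2 signal minus the probe set's mean over the 9 mice, puts the knockout mice in order. For the inner root sheath it was 3.16, 4.43, -1.05, -3.41 and 4.08 in knockout skin against -1.02, -2.82, 0.15 and -3.45 in wild-type skin. For the hair shaft it was 0.47, 2.15, -0.72, -1.39 and 2.34 against -0.59, -1.10, -0.24 and -0.74. For the keratin-associated proteins it was 0.30, 3.51, -0.66, -2.09 and 3.34 against -1.29, -1.62, 0.06 and -1.25. In each, knockout 4 was at the bottom of its group, and knockout 3 fell between the lowest and the highest wild-type mouse. The suprabasal class stayed between -0.31 and 0.32 in all 9 mice.

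Gene order was set beside these patterns. On chromosome 11 the RefSeq order runs Krt33b, Krt34, Krt31, Krt32, Krt35, Krt36, Krt13, Krt15 and Krt19. Those from Krt33b to Krt36 each had their highest signal in knockout 2 or 5 in the brighter probe set. Krt15 and Krt19 were dim in every mouse, and no Krt13 probe set passed the filter, with a highest signal of 60.8, in knockout 3. On the same chromosome Krt14, Krt16 and Krt17 follow one another, with Krt16 high in wild type 1 to 3. On chromosome 15, Krt6b, Krt6a, Krt5, Krt71 and Krt72 are consecutive. There the change from the Krt6b pattern, high in wild type 1, to the Krt71 pattern, high in knockout 2, occurs within 4 genes. No coordinates are given for probe sets, since the array files name no genome build.

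Genes outside the keratins were counted from fixed marker lists. Of 20 listed hair follicle genes on the array that are not keratins, 8 were bright enough to be tested. All 8 had the higher mean in knockout skin, against 51% of all probe sets, and 0 passed limma's test (median log2 difference 0.57). Knockout 1, 2 and 5 were the highest mice for 4 of the 8, against 2.74% of all probe sets. For 1 of these 4, Lef1, this rests on a near tie, with 363.5 in knockout 5, 363.4 in knockout 3 and 363.0 in wild type 3. The shares of all probe sets include dim ones, while the 8 were bright enough to be tested. Knockout 1, 2 and 5 were singled out in earlier results of the same data, so the count is not a test. Of the 8, those with the smallest p were the growth factor Bmp4, which read 237.7 to 284.3 in knockout and 113.2 to 242.6 in wild-type skin and was highest in knockout 3, and Dlx3. Dlx3, a transcription factor of the follicle, read 542.5, 847.0, 131.2, 154.0 and 514.6 against 136.1 to 174.9. Gata3, a factor of the inner root sheath and also of other skin cells, ran otherwise, with its highest signals in knockout 4 and 3 (1100.1 and 1072.6) and 731.2 in knockout 2. Cux1, another transcription factor, read 651.0 and 650.0 in knockout 1 and 2 and 321.5 to 463.6 in the other 7 mice. S100a3, a calcium-binding protein of the hair cuticle, read 1063.9, 2839.5, 126.6, 62.0 and 2077.1 in knockout and 121.2, 85.8, 284.5 and 85.7 in wild-type skin, highest in knockout 2, then 5, then 1, as for Krt31. Sonic hedgehog (Shh), a signal of the growing follicle's matrix, read 147.3, 177.0, 65.0, 12.8 and 60.7 against 9.0, 12.7, 65.5 and 27.8. For Shh, unlike the shaft keratins, knockout 5 was no higher than wild type 3 and knockout 1 was close to knockout 2.

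Pigment-cell genes differed among themselves. Of 8 listed genes on the array 5 were tested. All 5 had the higher knockout mean, against 51% of all probe sets, and 0 passed (median 0.55). In 3 of 5 knockout 1, 2 and 5 were the highest mice, against 2.74% of all probe sets. The limits given for the follicle list hold for these counts too. Pmel, a matrix protein of the pigment granule, read 374.3, 433.3, 100.0, 95.4 and 133.6 against 109.8, 77.2, 78.9 and 76.5, and the melanin enzyme Dct read 590.1, 856.2, 208.8, 148.6 and 365.6 against 183.0 to 221.5. Knockout 1 and 2 led for both, and knockout 5 was the next. Kit, a receptor of pigment cells, also had these mice highest, at 80.5, 100.9 and 107.9. Mitf, a transcription factor of pigment cells, read 49.6, 68.9, 53.8, 47.6 and 81.5 against 38.5, 28.7, 52.9 and 45.4, so that knockout 1 was below knockout 3. For Mc1r, the receptor for melanocyte-stimulating hormone, knockout 5 (53.2) was below wild type 2 and 4 (54.8 and 55.0). Their summed signal, to which Dct and Pmel contribute most, was 1189, 1547, 448, 402 and 742 in knockout skin and 412 to 468 in wild-type skin.

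Markers of other tissues in the sample were set beside these results. Summed signals of 11 skeletal muscle genes were 44660 to 55660 in knockout and 47970 to 72880 in wild-type skin. By mean log2 signal 0 of 11 were higher in the knockout, against 51% of all probe sets, with a median of -0.21. The 8 adipocyte genes (median 0.23) summed to 5670 to 7566 and 4467 to 7693, and the 7 fibroblast and matrix genes (0.36) to 16440 to 26170 and 16270 to 22280. The 6 leukocyte genes (-0.14) summed to 3205 to 4357 and 4093 to 5010, and the 6 endothelial genes (-0.07) to 570.9 to 797.2 and 608.6 to 865.1. The 9 cornified envelope genes (0.17) summed to 20040 to 28490 and 21370 to 24230, with knockout 4 highest as for Krt1 and Krt10. In all of these lists 0 genes passed limma's test, where 0.0522% of all tested probe sets did, and in each the ranges of the groups overlapped. Their part in the keratin values was not tested.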

How the data were processed

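Whole-skin RNA of 5 Cd1d -/- and 4 Cd1d +/+ mice was measured on 1 array per mouse. Per the labels, signals came from the authors' run of Microarray Suite 5.0 (MAS5), and they were deposited as natural log values. The base was settled from the values, since the exponential of 100% of them is a whole multiple of 0.1 (tolerance 0.002) and the mean trimmed by 2% at each end is 200.11 to 200.133 in every array. Signals printed are these exponentials. Detection calls were not used here, and precision is limited by how many mice there were. Nothing in the labels says that the mice of a group differed in litter or cage.

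Log2 signals were not normalised again. The 66 control probe sets were dropped. A probe set was tested where its signal reached the array's 40th percentile in at least 4 of 9 arrays. Tests used R 4.3.3 and limma 3.58.1 (lmFit, eBayes with trend, two-sided). P-values were adjusted by Benjamini-Hochberg over all 7658 tested probe sets, with a threshold of 0.05. For single members an exact two-sided permutation test of the difference in mean log2 signal was also run. The procedure was tested on simulated data. Class medians use every probe set and have no test. Gene symbols came from the platform annotation (10833 probe sets with 1 gene, 396 with several, 1193 with none). All 61 members matched the RefSeq gene table by Entrez identifier, which gave chromosome and order. Replicate numbers did not pair the mice (correlations of same-numbered deviations -0.05 to 0.11).

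Members and marker lists were chosen with earlier results of these data known. Named per class were the 5 members with the highest mean signal, the 3 with the smallest p, the 3 with the widest range and the lowest. The rule for marker lists was up to 4 genes with the smallest p and 3 with the highest signal. It was applied to the follicle and pigment lists, and the other lists are given as sums, with Lor alone named. Genes beyond this rule were chosen after their values were seen. Alternatives were other filters, pseudocounts of 16 and 64, 2 scalings, no trend, array weights, leaving out each array, the replicate number as a block and the number of decimals. Raising dim signals to the array's 40th percentile was added after the data were seen.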

Additional observations from a re-analysis of the deposited data

Results flagged for a closer look

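Each group's log2 signals of the tested members, and of some others, were examined for a single mouse standing far from the rest, in 82 groups of values. Chance alone marks about 1 in 20 such groups, and 3 were marked. A dimmer Krt17 probe set read 32.9 in knockout 4, where the other knockout mice read 95.7 to 107.7. This gap is 0.900 of the group's range, but the brighter Krt17 probe sets show no such gap in that mouse. A bright Krt17 probe set read 2522.8 in knockout 1 (gap 0.768), below the 3242.3 of knockout 3. Krt33b read 99.6 in wild type 2, below the 159.8 of wild type 1 (gap 0.929).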

How the results depend on the processing

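The count of members that passed limma's threshold stayed at 0 in 20 of 21 alternatives and was 1 within the 7-decimal arrays. The count over all probe sets, 4, became 9 with array weights, 7 with a pseudocount of 64, 10 within the 7-decimal and 0 within the 9-decimal arrays, and 4 to 8 without single arrays (7 without knockout 2 or 3, 8 without knockout 4). With the replicate number as a block, though the numbers do not pair the mice, it was 1 and that of members 0. The 9-decimal arrays hold 1 wild-type mouse.

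Class medians kept their sign for the inner root sheath (1.05 to 5.83), hair shaft (0.69 to 2.11), keratin-associated proteins (0.87 to 2.89) and outer root sheath class (-0.67 to -0.07) over 19 alternatives each. That of the simple and mucosal class was 0.013 over tested probe sets. The suprabasal median was -0.313 and the outer root sheath median -0.673 within the 9-decimal arrays, and the simple and mucosal median was 0.057 and -0.463 within the 7- and 9-decimal arrays. Without single arrays the ranges were 2.46 to 4.42 for the inner root sheath, 0.83 to 1.72 for the shaft, 1.04 to 2.35 for the keratin-associated proteins, -0.34 to 0.39 for the basal, -0.09 to 0.07 for the suprabasal, -0.43 to -0.07 for the outer root sheath and -0.30 to -0.07 for the simple and mucosal class.

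Some single members, most of them near 0, turned sign, and the cause was not tested. Within the 7-decimal arrays the log2 differences were 0.057 for Krt4, -0.186 for Krt1, 0.164 for Krt2, 0.229 for Krt84, -0.086 for the brightest Krt17 probe set and 0.338 for Krtap5-1. Within the 9-decimal arrays they were 0.05 for the other bright Krt17 probe set, -0.035 for Krtap13, -0.92 for Krt20, -0.459 for Krt12 and -0.347 for the first Krt35 probe set. With the decimals as a block they were -0.093 for Krt1, 0.065 for Krt84, -0.049 for the brightest Krt17 probe set and 0.112 for Krtap5-1. With array weights they were 0.142 for Krt84, 0.093 for the other Krt17 probe set, 0.239 for Krtap5-1 and -0.074 for Krt12. Krt84 was 0.012 and 0.028 with pseudocounts of 16 and 64. The Krt17 probe sets were 0.027 with quantile normalisation and -0.025 with median centring, and Krt20 was -0.013 with median centring. With the replicate block, Krt17 was -0.03 and Krt20 -0.179. Without single arrays the ranges that crossed 0 were -0.145 (without knockout 4) to 0.335 for Krt1, -0.411 to 0.025 for the dimmer Krt6a probe set, -0.226 to 0.24 for Krt84, -0.095 to 0.11 and -0.08 to 0.133 for the bright Krt17 probe sets, -0.231 to 0.322 for Krtap5-1, -0.151 to 0.007 for Krt77, -0.305 to 0.258 for Krt20 and -0.199 to 0.349 for Krt12. Low signals have the largest relative error on these arrays.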
